A study of Mus musculus with 8 samples.

Results

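The genes described here are the nuclear genes for complex I of the respiratory chain, taken as every gene in the count table whose symbol starts with Nduf. There were 47 such genes among the 12171 genes of the table. Of these, 39 carry a subunit symbol and 8 carry the symbol Ndufaf, for complex I assembly factors. Of the 39 subunit symbols, 37 name nuclear subunits of complex I. The remaining pair are Ndufa4, whose protein is now placed in complex IV, and its paralogue Ndufa4l2.

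RNA was taken from the quadriceps (QUAD) of 8 male C57BL/6J mice, with 1 library per mouse, 4 in the D-gal + MSCs group and 4 in the D-gal + PBS group. All 8 mice arrived at 6 weeks of age, were left for 1 week to settle, and then had daily subcutaneous D-gal (D-galactose, a sugar used to bring on features of ageing) at 100 mg/kg for 12 weeks. D-gal + MSCs mice also had human umbilical cord mesenchymal stromal cells (MSCs), 1000000 cells per mouse in PBS, injected in 6 rounds 7 days apart. D-gal + PBS mice had PBS without cells. The injected hind limb muscles were the gastrocnemius, the tibialis anterior and the QUAD, so the muscle sequenced was among those injected. Mice without D-gal were not analysed here, so the comparison asks what cell injection did in mice that had all had the sugar.

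Complex I takes electrons from NADH, passes them along iron-sulfur clusters to ubiquinone and pumps protons out of the mitochondrial matrix. Its matrix arm holds the flavin and the clusters, and its membrane arm holds the proton pumps, whose core proteins are coded in mitochondrial DNA while the other subunits come from the nucleus. Assembly factors help to build the complex without staying in it, and oxidative muscle fibres hold more of it than fast glycolytic fibres.

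The 37 nuclear subunits were high or low together from mouse to mouse, and the mice did not sort by group. In D-gal + MSCs mice 3 and 4 and in D-gal + PBS mouse 4, 37 of 37 subunits lay above their own mean over the 8 mice. In D-gal + MSCs mouse 1 and in D-gal + PBS mice 2 and 3, 0 of 37 did. No Nduf gene passed the test between the groups, which called 0 of all 12171 genes. Of the 47, 43 (91.5%) had a positive log2 fold change, D-gal + MSCs over D-gal + PBS, against 49.5% of all genes. After scaling, D-gal + MSCs mouse 4 was highest in 38 of the 47 genes and D-gal + PBS mouse 2 lowest in 33. Leaving out both therefore had to lower most fold changes. Without them 23 of 47 were positive, against 49.4% of all genes. Without D-gal + PBS mouse 4, where the subunits were high, 46 of 47 were positive, against 49.8% of all genes.

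Total counts were 32772221 to 40057968 in D-gal + MSCs libraries and 34912348 to 39356399 in D-gal + PBS libraries. The Nduf genes took 224310 to 296981 of these counts in D-gal + MSCs libraries and 225329 to 331915 in D-gal + PBS libraries. The lowest single value was 128 counts, for Ndufaf2. Mitochondrially encoded genes took 22.6% to 36.6% of counts in D-gal + MSCs libraries and 13.9% to 18.6% in D-gal + PBS libraries. The TMM factor, which scales each library for its composition, was 0.760 in D-gal + MSCs mouse 4 and between 0.958 and 1.14 in the other 7 libraries, so the level of every nuclear gene in that mouse depends more than elsewhere on the scaling. All 8 markers of skeletal muscle fibres used to check the tissue were abundant, with Acta1, the actin of skeletal muscle, at 27510 to 36160 CPM in D-gal + MSCs mice and 32460 to 46220 CPM in D-gal + PBS mice. CPM stands for counts per 1000000 after TMM scaling.

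Promoters of the family are shown first because the subunits varied together. Each motif searched was found in at most 16 of the 41 genes with a promoter. The search took exact letters only, and a link between the motifs and the shared variation was not tested. RefSeq promoters of the build GRCm38.p6, each reaching from 250 bases before a start site to 50 after it, were found for 41 of the 47 genes. Both strands were searched for NRF1 (GCGCANGCG), ERR (TNAAGGTCA), ETS (CCGGAAG), YY1 (ANATGGCG) and SP1 (GGGCGGG), where N is any base, and matches of different motifs may overlap. Ndufb4, a subunit of the membrane arm, lies on the minus strand (window chr16:37654319-37654618) and is shown because it held 3 NRF1 matches, the only ERR match among the 41 genes, and 1 SP1 match. Ndufs6 (minus strand, chr13:73328433-73328732) and Ndufs7 (plus strand, chr10:80249199-80249498) are shown because their YY1 matches lie just after the start site, at bases 35 and 26 of the transcript, and Ndufs6 also holds 1 NRF1 match. Ndufv1 (minus strand, chr19:4012706-4013005) is shown because it had the largest fold change of the core subunits and held none of the 5 motifs. Capitals mark the matches, and these 4 were chosen after the matches had been seen.
Ndufb4: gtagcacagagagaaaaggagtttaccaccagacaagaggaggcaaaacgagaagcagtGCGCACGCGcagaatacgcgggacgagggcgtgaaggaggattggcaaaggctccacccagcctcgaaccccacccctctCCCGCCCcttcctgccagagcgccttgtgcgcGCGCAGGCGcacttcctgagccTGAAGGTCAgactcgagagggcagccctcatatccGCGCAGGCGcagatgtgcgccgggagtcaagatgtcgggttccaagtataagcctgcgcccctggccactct
Ndufs6: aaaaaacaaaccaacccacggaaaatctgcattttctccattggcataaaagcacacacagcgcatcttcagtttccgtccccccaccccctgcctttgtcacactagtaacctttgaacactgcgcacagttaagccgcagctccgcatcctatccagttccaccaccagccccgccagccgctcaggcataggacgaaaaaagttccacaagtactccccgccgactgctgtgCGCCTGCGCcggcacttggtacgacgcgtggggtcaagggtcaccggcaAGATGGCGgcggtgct
Ndufs7: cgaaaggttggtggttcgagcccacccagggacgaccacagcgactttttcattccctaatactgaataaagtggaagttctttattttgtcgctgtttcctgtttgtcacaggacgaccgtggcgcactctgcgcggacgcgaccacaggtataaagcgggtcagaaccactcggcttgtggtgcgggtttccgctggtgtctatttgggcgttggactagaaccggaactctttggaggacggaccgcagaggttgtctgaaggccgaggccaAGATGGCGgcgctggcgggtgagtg
Ndufv1: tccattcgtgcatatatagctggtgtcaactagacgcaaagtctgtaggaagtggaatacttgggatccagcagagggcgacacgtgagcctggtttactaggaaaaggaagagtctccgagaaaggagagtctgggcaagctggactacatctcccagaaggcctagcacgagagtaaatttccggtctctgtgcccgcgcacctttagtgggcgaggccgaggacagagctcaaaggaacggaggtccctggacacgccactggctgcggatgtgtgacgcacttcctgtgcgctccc

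The NRF1 match was present in 10 of 41 Nduf genes (24.4%), against 15.5% of 9385 measured genes and 6.25% of all 32851 promoters. YY1 letters were in 10 of 41 Nduf genes (24.4%), against 8.24% of measured genes and 3.65% of all promoters. ERR letters were in 1 of 41 (2.44%), against 0.820% of measured genes and 1.28% of all promoters. The ETS match was less common in the family than in measured genes, at 6 of 41 (14.6%) against 20.2%, and so was SP1, at 16 of 41 (39.0%) against 52.9%, with 8.86% and 25.6% of all promoters holding them. Median log2 fold changes of Nduf genes with and without the letters were 0.19 and 0.25 for NRF1, 0.20 and 0.25 for YY1, 0.28 and 0.20 for ETS, and 0.27 and 0.20 for SP1, and the 1 gene with ERR letters had -0.01 against a median of 0.23. These shares and medians are descriptions without a test.

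**Figure D1:**
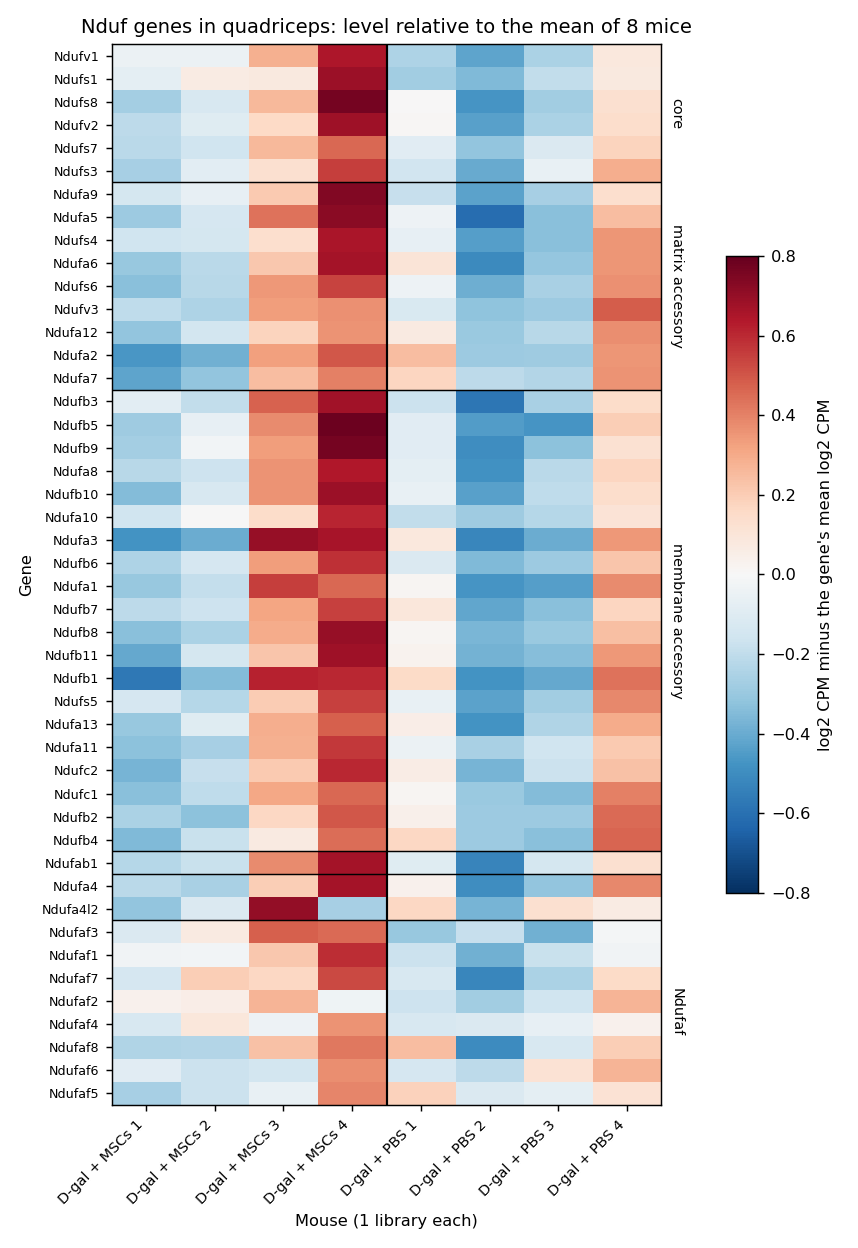
Level of each of 46 Nduf genes (vertical) in each mouse (horizontal, D-gal + MSCs left and D-gal + PBS right of the black line), as log2 CPM minus the gene's mean over the 8 mice, with genes grouped by role. D-gal + MSCs mice 3 and 4 and D-gal + PBS mouse 4 are red for all 36 complex I subunits drawn. D-gal + MSCs mouse 1 and D-gal + PBS mice 2 and 3 are blue for all 36. The Ndufaf genes and Ndufa4l2 do not all share these colours.

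The mean log2 level of the 37 subunits relative to the 8 mice was -0.27, -0.17, 0.29 and 0.59 in D-gal + MSCs mice 1 to 4, against -0.03, -0.40, -0.28 and 0.27 in D-gal + PBS mice 1 to 4. These means spanned 0.862 among D-gal + MSCs mice and 0.668 among D-gal + PBS mice, and the group means differed by 0.221. In 37 of 37 subunits the fold between the highest and lowest D-gal + MSCs mouse was larger than the fold between groups. The same was true of 37 of 37 among D-gal + PBS mice. A range over 4 mice is readily wider than a difference between group averages. The share of all genes was not computed, so these counts do not show a trait of the family. From the lowest to the highest of the 8 mice, the subunits differed by 1.61-fold (Ndufa12) to 2.52-fold (Ndufa5), with a median of 2.04-fold against 1.75-fold over all genes. In D-gal + MSCs mouse 4, single subunits lay between 0.36 and 0.78 above their mean on the log2 scale, and in D-gal + PBS mouse 2 between -0.61 and -0.21. D-gal + MSCs mouse 2 had 1 of 37 subunits above its mean and D-gal + PBS mouse 1 had 17 of 37, while 50.3% to 52.5% of all genes lay above their means in each mouse. With library totals alone in place of TMM factors, 37, 35 and 37 of 37 lay above in D-gal + MSCs mice 3 and 4 and D-gal + PBS mouse 4, 28 in D-gal + PBS mouse 1, and 0, 1, 0 and 3 in D-gal + MSCs mice 1 and 2 and D-gal + PBS mice 2 and 3. On that scale 13.7% (D-gal + MSCs mouse 4) to 77.6% (D-gal + PBS mouse 2) of all genes lay above their means.

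Against this spread, edgeR's quasi-likelihood test called 0 of 47 Nduf genes at an adjusted p under 0.05, where it called 0% of all 12171 genes, and the lowest adjusted p of a Nduf gene was 0.359, for Ndufaf3. At an unadjusted p under 0.05 it reached 3 of 47 (6.38%), all higher in D-gal + MSCs mice, against 10.7% of all genes in either direction and 5.64% in that direction, so the family was near the background with all 8 mice. Without D-gal + MSCs mouse 1 it reached 13 of 47 (27.7%), against 9.42% of all genes, and without D-gal + MSCs mouse 4 it reached 0 of 47, against 8.06%. DESeq2 called 0 of 47 at an adjusted p under 0.05 with a lowest adjusted p of 0.234, where it called 2.52% of all genes. With limma-voom 0 of 47 were called, and 0 of all 12171 genes. The 4 D-gal + MSCs mice lay wholly on 1 side of the 4 D-gal + PBS mice in CPM for 0 of 47 genes, against 6.28% of all genes. Without D-gal + MSCs mouse 1 this count was 3 (6.38%), against 8.81% of all genes, and without D-gal + PBS mouse 4 it was 8 (17.0%), against 11.0%. P-values here measure the spread between mice, and a missed threshold does not show that the groups were alike. In bulk muscle, fewer fibres of a kind and less RNA per fibre cannot be told apart.

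The median log2 fold change was 0.25 over the 39 subunit symbols and 0.15 over the 8 Ndufaf genes, against -0.00 over all genes. By role, it was 0.29 for the 7 core subunits, 0.18 for the 9 accessory subunits of the matrix arm and 0.25 for the 20 of the membrane arm. Standard errors of single genes ran from 0.12 to 0.32. Without D-gal + MSCs mouse 4 the median of the subunits was 0.05, without D-gal + PBS mouse 2 it was 0.16, and without D-gal + PBS mouse 4 it was 0.39. With D-gal + MSCs mouse 4 and D-gal + PBS mouse 2 both left out it was -0.02, with 23 of 47 genes positive and 24 negative. These were the mice most often highest and lowest for the family, so the direction of that shift was fixed in advance. With library totals alone, 25 of 47 were positive and 22 negative, and the subunits had a median of 0.04 while the median of all genes moved to -0.19, which leaves the subunits 0.22 above it.

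**Figure D2:**
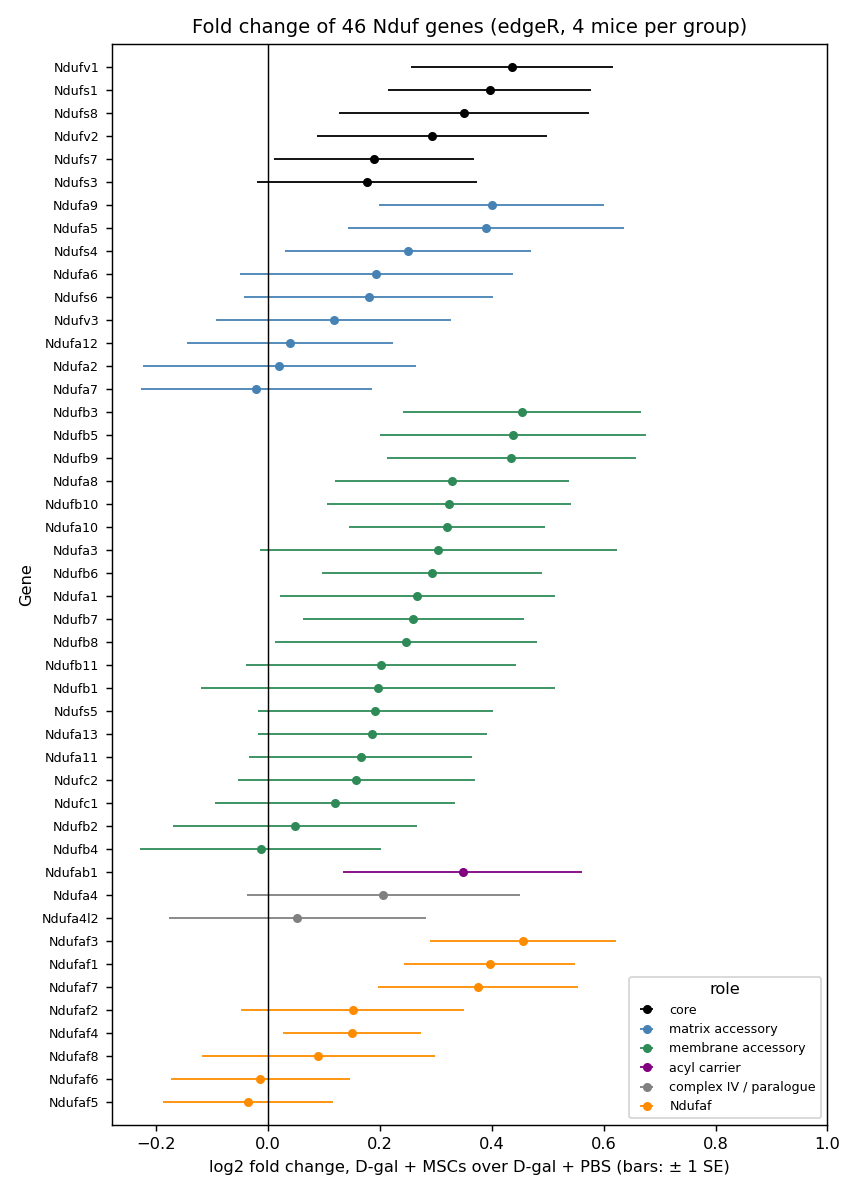
Log2 fold change of D-gal + MSCs over D-gal + PBS (horizontal) for each of 46 Nduf genes (vertical), from edgeR over 4 mice per group, with bars of 1 SE on each side and colours for the role. Points run from -0.04 for Ndufaf5 to 0.46 for Ndufaf3, and 42 of 46 lie right of 0.

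The core subunits of the matrix arm carry the flavin, the iron-sulfur clusters and the ubiquinone site. Ndufv1, whose protein binds NADH and the flavin, had 304, 305, 383 and 492 CPM in D-gal + MSCs mice, against 265, 235, 263 and 334 CPM in D-gal + PBS mice. The groups overlapped because D-gal + PBS mouse 4 lay above D-gal + MSCs mice 1 and 2, and the log2 fold change of 0.44 (SE 0.18) had an edgeR adjusted p of 0.418. Its partner Ndufv2, which holds an iron-sulfur cluster beside the flavin, had 303, 329, 392 and 562 CPM in D-gal + MSCs mice, against 353, 259, 295 and 387 CPM in D-gal + PBS mice. Here D-gal + MSCs mice 1 and 2 lay within the D-gal + PBS range, and the log2 fold change was 0.29 (SE 0.21).

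Ndufs1, the largest core subunit of the arm and the carrier of several clusters, had 330, 365, 369 and 561 CPM in D-gal + MSCs mice, against 288, 273, 305 and 369 CPM in D-gal + PBS mice. D-gal + MSCs mouse 4 stood far above the other 7, D-gal + PBS mouse 4 reached the level of D-gal + MSCs mouse 3, and the log2 fold change was 0.40 (SE 0.18). Ndufs7, whose protein holds the last cluster before ubiquinone, had 325, 337, 452 and 518 CPM in D-gal + MSCs mice, against 354, 302, 348 and 426 CPM in D-gal + PBS mice. D-gal + MSCs mice 1 and 2 were below D-gal + PBS mice 1 and 3, and the log2 fold change was 0.19 (SE 0.18).

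Ndufs3, another subunit beside the ubiquinone site, had 214, 242, 280 and 376 CPM in D-gal + MSCs mice, against 231, 194, 246 and 313 CPM in D-gal + PBS mice, and a log2 fold change of 0.18 (SE 0.20). Its 2 groups interleaved over most of their range. Its exons overlap those of Kbtbd4 on the opposite strand. Ndufs8, which carries clusters near the membrane, had 108, 119, 156 and 221 CPM in D-gal + MSCs mice, against 130, 93.8, 107 and 142 CPM in D-gal + PBS mice. Only D-gal + MSCs mice 3 and 4 were above every D-gal + PBS mouse, and the log2 fold change was 0.35 (SE 0.22). In all 7 core genes D-gal + MSCs mouse 4 was the highest library by TMM-scaled CPM and D-gal + PBS mouse 2 the lowest. Of all 12171 genes, 2258 were highest in that D-gal + MSCs mouse and 1381 lowest in that D-gal + PBS mouse. With library totals alone, D-gal + MSCs mouse 4 was highest in 6 of the 47 Nduf genes.

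The 9 accessory subunits of the matrix arm ranged from a log2 fold change of -0.02 (Ndufa7) to 0.40 (Ndufa9), with 8 positive and 1 negative. Ndufa9 belongs to the short-chain dehydrogenase family and binds a nucleotide next to the ubiquinone site, and Ndufs4 (0.25) and Ndufs6 (0.18) sit near the NADH-oxidising end. Ndufa7 had 74.3, 80.0, 118 and 131 CPM in D-gal + MSCs mice, against 112, 86.0, 84.4 and 127 CPM in D-gal + PBS mice. D-gal + MSCs mice held both the lowest and the highest values, so the groups overlapped throughout. Ndufa2, a small protein with a thioredoxin-like fold, had 71.9, 76.1, 125 and 140 CPM in D-gal + MSCs mice, against 118, 81.2, 81.6 and 127 CPM in D-gal + PBS mice, and a log2 fold change of 0.02 (SE 0.24). Its lowest mice were also D-gal + MSCs mice 1 and 2, and its exons overlap those of Tmco6 on the opposite strand.

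The 20 accessory subunits of the membrane arm surround the proton pumps, and 19 had a positive and 1 a negative log2 fold change. Ndufb3 had the largest fold change of the subunits, 0.45 (SE 0.21), with 82.7, 76.4, 122 and 140 CPM in D-gal + MSCs mice, against 77.9, 58.7, 73.0 and 97.0 CPM in D-gal + PBS mice. D-gal + MSCs mice 3 and 4 were above every D-gal + PBS mouse and mice 1 and 2 were within their range. Ndufb5 had 195, 227, 309 and 409 CPM in D-gal + MSCs mice, against 223, 175, 171 and 273 CPM in D-gal + PBS mice, with a log2 fold change of 0.44 (SE 0.24). The groups again separated only at mice 3 and 4, and exons of Ndufb5 overlap those of Mrpl47, a mitochondrial ribosomal gene, on the opposite strand.

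Ndufb8, a membrane arm subunit whose protein is a common marker of assembled complex I and was measured by the study, had 236, 250, 367 and 483 CPM in D-gal + MSCs mice, against 301, 232, 242 and 352 CPM in D-gal + PBS mice. The 2 lower D-gal + MSCs mice lay among the D-gal + PBS mice, and the log2 fold change was 0.25 (SE 0.23). Ndufb4 had 111, 126, 150 and 194 CPM in D-gal + MSCs mice, against 160, 116, 113 and 197 CPM in D-gal + PBS mice, with the highest value in D-gal + PBS mouse 4 and a log2 fold change of -0.01 (SE 0.22). Near-identical copies of Ndufb4 exist in the mouse genome, so its counts are uncertain.

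Ndufab1 is the mitochondrial acyl carrier protein, which also serves fatty acid synthesis, and binds to both arms of complex I. It had 152, 157, 231 and 281 CPM in D-gal + MSCs mice, against 166, 123, 161 and 194 CPM in D-gal + PBS mice. D-gal + MSCs mice 1 and 2 lay inside the D-gal + PBS range, and the log2 fold change was 0.35 (SE 0.21).

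Ndufa4, placed in complex IV, followed the complex I subunits. It had 420, 408, 559 and 774 CPM in D-gal + MSCs mice, against 499, 346, 391 and 638 CPM in D-gal + PBS mice, and a log2 fold change of 0.21 (SE 0.24). D-gal + MSCs mouse 4 and D-gal + PBS mouse 4 were its highest mice. Ndufa4l2, its paralogue, which is known in human cells as a gene induced by low oxygen, had 12.7, 14.6, 25.7 and 13.1 CPM in D-gal + MSCs mice, against 17.8, 12.2, 17.3 and 16.6 CPM in D-gal + PBS mice. It departed from the family pattern in D-gal + MSCs mouse 4, which was low, and its log2 fold change was 0.05 (SE 0.23). Its exons overlap those of Shmt2 on the opposite strand.

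The 8 Ndufaf genes code for proteins that join modules of complex I or modify its subunits. They varied less than the subunits, with 1.40-fold (Ndufaf4) to 2.07-fold (Ndufaf7) between the lowest and highest of the 8 mice. Ndufaf3, which acts with Ndufaf4 in the early assembly of the ubiquinone module, had 12.8, 14.6, 19.4 and 19.0 CPM in D-gal + MSCs mice, against 11.3, 12.2, 10.7 and 13.8 CPM in D-gal + PBS mice. Only D-gal + MSCs mouse 1 lay below a D-gal + PBS mouse, and the log2 fold change of 0.46 (SE 0.17) was the largest of the 47 genes. Its exons overlap those of Impdh2 on the opposite strand. Ndufaf1, a member of the assembly complex for the membrane arm, had 36.3, 36.5, 43.0 and 55.9 CPM in D-gal + MSCs mice, against 32.9, 28.4, 32.8 and 36.3 CPM in D-gal + PBS mice. The groups met at D-gal + MSCs mouse 1 and D-gal + PBS mouse 4, and the log2 fold change was 0.40 (SE 0.15) with an edgeR adjusted p of 0.391.

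Ndufaf5, which in human cells hydroxylates an arginine of the Ndufs7 protein, had 35.0, 37.3, 40.3 and 55.1 CPM in D-gal + MSCs mice, against 47.7, 38.8, 39.7 and 45.6 CPM in D-gal + PBS mice. Its fold change of -0.04 (SE 0.15) was the lowest of the family, although D-gal + MSCs mouse 4 was its highest library. Ndufaf6, needed early in assembly in human cells, had 23.6, 22.3, 22.7 and 32.5 CPM in D-gal + MSCs mice, against 22.8, 21.7, 27.1 and 30.3 CPM in D-gal + PBS mice, with a log2 fold change of -0.01 (SE 0.16). The remaining 4, Ndufaf2, Ndufaf4, Ndufaf7 and Ndufaf8, had log2 fold changes of 0.09 (Ndufaf8) to 0.37 (Ndufaf7, a methyltransferase that acts in early assembly).

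Of 13 further assembly factors with other symbols, 12 were measured. With TMM factors all 12 had a positive log2 fold change, from 0.00 (Tmem126b) to 0.35 (Aifm1), with a median of 0.13, against 49.5% of all genes positive. The adjusted test passed 0 of 12 in edgeR, against 0% of all genes, and 0 of 12 in DESeq2, against 2.52%. With library totals alone 4 were positive and 8 negative, with a median of -0.07. On that scale 23.4% of all genes were positive and their median was -0.19. With TMM factors, Acad9 (0.13) and Ecsit (0.14) lay near the median of the 12. Their proteins are members of the membrane arm assembly complex, as is that of Ndufaf1, which had 0.40. Aifm1, which is needed for import of several complex I subunits, had 37.1, 34.0, 35.4 and 46.8 CPM in D-gal + MSCs mice, against 28.3, 30.2, 27.7 and 33.9 CPM in D-gal + PBS mice. It was the 1 gene of the 12 whose groups did not overlap, against 6.28% of all genes, and was singled out after its values were seen.

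Within a library, the share that each gene took of the summed Nduf counts does not depend on scaling. Ndufv1 took 4.76%, 4.46%, 4.37% and 4.33% of them in D-gal + MSCs mice, against 3.72%, 4.15%, 4.23% and 3.79% in D-gal + PBS mice. It was the 1 gene of 47 with a higher share in all 4 D-gal + MSCs mice than in any D-gal + PBS mouse, where 1.03% of all genes, set against the same sum, were higher in this way. Ndufa12, which lies close to the Ndufs6 and Ndufs4 proteins, took 1.52%, 1.60%, 1.56% and 1.36% in D-gal + MSCs mice, against 1.77%, 1.74%, 1.66% and 1.77% in D-gal + PBS mice. Ndufa7 took 1.16%, 1.17%, 1.35% and 1.16% in D-gal + MSCs mice, against 1.57%, 1.52%, 1.35% and 1.44% in D-gal + PBS mice, where D-gal + MSCs mouse 3 and D-gal + PBS mouse 3 nearly met. These were the 2 of 47 genes (4.26%) with a lower share in all 4 D-gal + MSCs mice, against 4.18% of all genes, so the family was near the background in this count.

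The family as a whole took 0.640%, 0.684%, 0.884% and 0.863% of the counts of D-gal + MSCs mice, against 0.763%, 0.645%, 0.694% and 0.843% in D-gal + PBS mice. Summed over the TMM-scaled libraries, it averaged 8336 ± 2265 CPM in D-gal + MSCs mice and 6958 ± 1373 CPM in D-gal + PBS mice (SD, n = 4 each). Both measures overlapped between the groups, and D-gal + MSCs mouse 4 had the highest summed CPM but not the highest share of all counts. Of the counts of nuclear genes alone, the family took 0.887%, 0.884%, 1.21% and 1.36% in D-gal + MSCs mice, against 0.937%, 0.750%, 0.839% and 1.02% in D-gal + PBS mice. On that measure D-gal + MSCs mouse 4 was highest, and the groups again overlapped. The 7 complex I subunits coded in mitochondrial DNA, the mt-Nd genes, were set against these nuclear partners. Their counts were 15.8, 11.5, 10.5 and 14.8 times those of the 37 nuclear subunits in D-gal + MSCs mice, against 7.82, 7.50, 8.52 and 6.21 times in D-gal + PBS mice, 13.2 ± 2.58 and 7.51 ± 0.965 (SD, n = 4 each). The lowest D-gal + MSCs mouse was above the highest D-gal + PBS mouse, and the ratio, taken within each library, is given without a test. The median log2 fold change of the mt-Nd genes was 1.19. At an adjusted p under 0.05 edgeR called 0 of 7, against 0% of all genes, and DESeq2 6 of 7, against 2.52%. At an unadjusted p under 0.05 in edgeR, 7 of 7 were higher in D-gal + MSCs mice, against 5.64% of all genes.

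**Figure D3:**
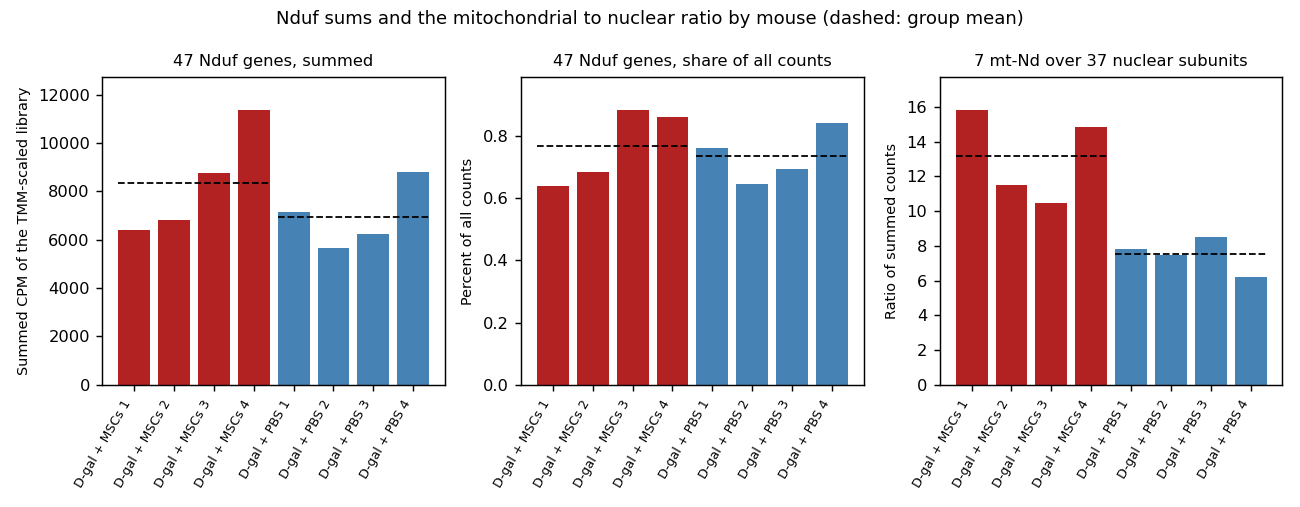
Bars give 1 value per mouse, D-gal + MSCs left and D-gal + PBS right, and dashed lines the group means: summed CPM of the 47 Nduf genes, their percent of all counts, and the ratio of summed counts of the 7 mt-Nd genes to the 37 nuclear subunits. The first and second panels overlap between groups, and in the third the D-gal + MSCs mice lie at 10.5 to 15.8 times and the D-gal + PBS mice at 6.21 to 8.52.

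The subunits were among the most abundant mRNAs for their length, with a median of 152 CPM per kb over the 36 with a transcript length, above 97.2% of genes with a length. The Ndufaf genes had a median of 16.2 CPM per kb and all genes 5.06. On the same scale the core subunits had a median of 212 and the accessory subunits 145, from 24.8 for Ndufb2 to 453 for Ndufb8, while Ndufa4 stood at 827. Ndufb2 averaged 110 CPM in D-gal + MSCs and 107 CPM in D-gal + PBS mice. Its low value per kb rests on the transcript length used, 4371 bases, which was not checked against the reads. Most subunit mRNAs are short, with a median length of 940 bases against 3070 over all genes, and 32 of 36 were among the 2324 genes with the shortest transcripts, 20% of all. Those genes had a mean log2 level of -0.15, -0.11, 0.12 and 0.07 in D-gal + MSCs mice, against 0.09, -0.06, -0.06 and 0.10 in D-gal + PBS mice. Their highest mice, D-gal + MSCs mice 3 and 4 and D-gal + PBS mice 1 and 4, included the 3 where the subunits were high. The median log2 fold change of these short genes was -0.05, and their part in the spread of the subunits was not tested.

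Markers of slow and oxidative fibres also differed between the mice. All 8 of the list had a positive log2 fold change, against 49.5% of all genes. At an adjusted p under 0.05 edgeR called 0 of 8, against 0% of all genes, and DESeq2 1 of 8, against 2.52%. Their summed level was 2654 to 13140 CPM in D-gal + MSCs mice, against 897 to 2437 CPM in D-gal + PBS mice. Mb and Myh2, for myoglobin and the fast oxidative myosin, made up most of these sums, and the other 6 summed to 66.2, 9.84, 295 and 1980 CPM in D-gal + MSCs mice, against 93.8, 2.81, 47.4 and 20.5 CPM in D-gal + PBS mice, so that the groups overlapped. The mean log2 level of all 8 was 0.04, -1.59, 1.75 and 4.53 in D-gal + MSCs mice, against 0.85, -3.81, -0.03 and -1.74 in D-gal + PBS mice. D-gal + MSCs mice 3 and 4 were highest and D-gal + PBS mouse 2 lowest both here and for the subunits, but D-gal + PBS mouse 4, high for the subunits, was low in this mean while its summed level of 2437 CPM was the highest of the D-gal + PBS mice. In D-gal + PBS mouse 2, Myl2 and Tnni1, a myosin light chain and a troponin of slow fibres, were at 0. The 8 markers of skeletal muscle fibres used to check the tissue are mostly genes of fast fibres, among them Myh4, Actn3 and Mylpf. They therefore do not stand for muscle fibres in general. These 8 had 0 positive log2 fold changes, against 49.5% of all genes. Their summed level was 83110 to 105700 CPM in D-gal + MSCs mice, against 102100 to 135000 CPM in D-gal + PBS mice. For adipocytes, 5 of 6 markers were measured, with a summed level of 266 to 480 CPM in D-gal + MSCs mice and 268 to 620 CPM in D-gal + PBS mice, highest in D-gal + PBS mouse 2. Fabp4, a fatty acid carrier also found in endothelial cells, made up most of each sum, and the mean log2 level of the 5 markers was 0.99, 0.99, -2.67 and -3.87 in D-gal + MSCs mice, against 0.19, 3.56, 0.20 and 0.60 in D-gal + PBS mice. Adipoq, a defining gene of fat cells, was at 0 in D-gal + MSCs mice 3 and 4. The part of fibre type or fat in the levels of the Nduf genes was not tested.

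**Figure D4:**
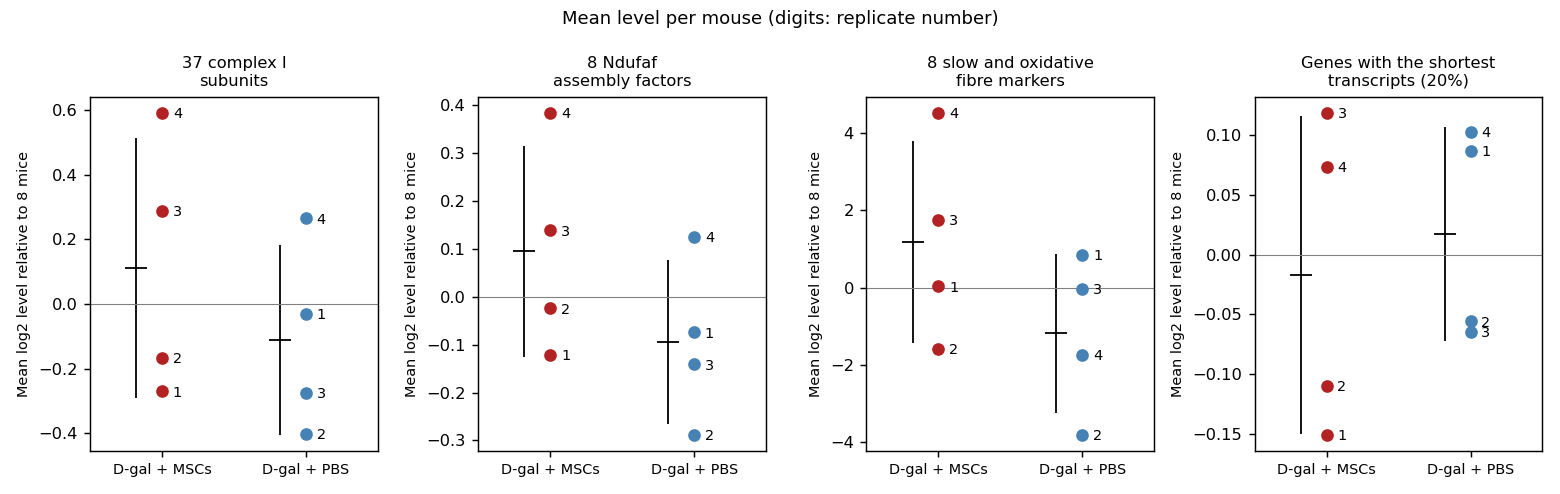
Mean log2 level relative to the 8 mice (vertical) for the 37 complex I subunits, the 8 Ndufaf genes, the 8 slow and oxidative fibre markers and the 20% of genes with the shortest transcripts, with 1 point per mouse, its replicate number beside it, and group mean and SD as a dash and bar. D-gal + MSCs mice 3 and 4 are above 0 in all 4 panels, and D-gal + PBS mouse 4 is above 0 in all but the fibre markers. The vertical scales differ between panels.

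Overlapping genes limit some of these values. Exons of 10 Nduf genes overlap those of another measured gene, each time on the opposite strand, and the strand setting of the counting is not given in the sources used here, so reads of the partners cannot be told apart. Beside the 5 already named (Ndufs3, Ndufa2, Ndufb5, Ndufa4l2 and Ndufaf3), these are Ndufs6, Ndufa3, Ndufb6, Ndufb11 and Ndufb2.

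**Figure D5:**
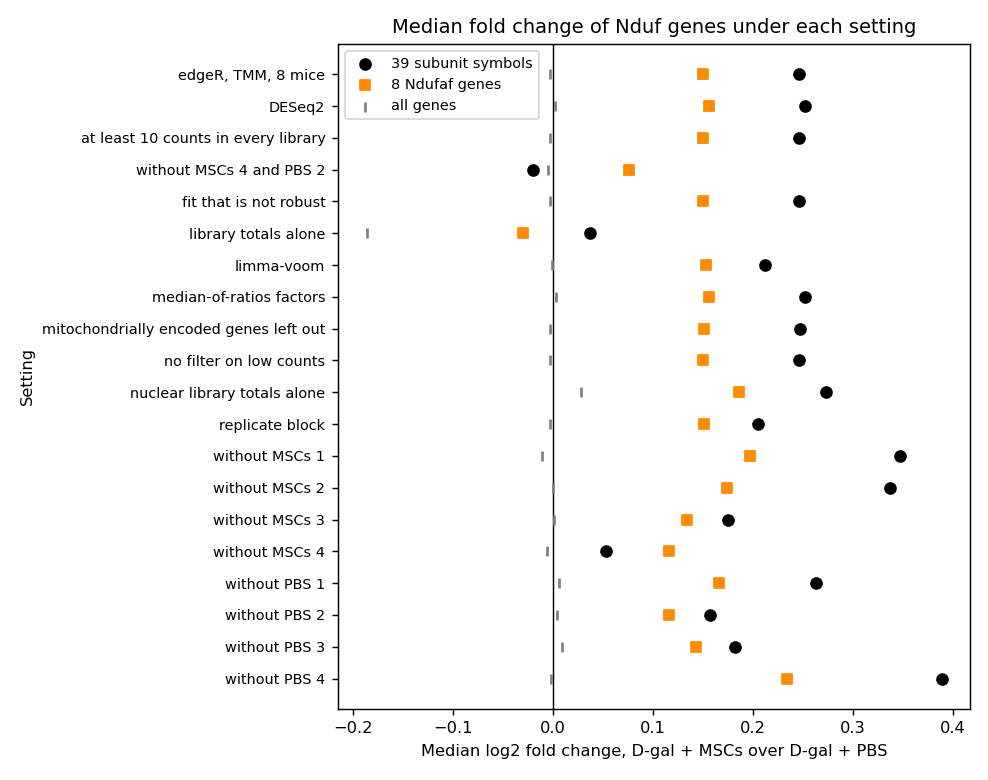
Median log2 fold change, D-gal + MSCs over D-gal + PBS (horizontal), of the 39 subunit symbols, the 8 Ndufaf genes and all genes under each setting (vertical). The subunits lie at 0.25 in edgeR with TMM factors and 8 mice, and at 0.05 without D-gal + MSCs mouse 4. They lie at -0.02 without that mouse and D-gal + PBS mouse 2, the mice most often highest and lowest for the family. Without D-gal + PBS mouse 4 they lie at 0.39.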

How the data were processed

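The files hold raw counts per gene for 8 QUAD libraries, 1 per mouse, in 1 table as deposited. The authors aligned reads with HISAT2 (version not given) to GRCm39, per the labels. What counted the reads, over which annotation and with which strand setting, is not given in the sources used here. Nduf genes were taken by symbol, with roles from general knowledge.

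Counts of all 12171 genes were tested in R 4.3.3 with edgeR 4.0.16 (TMM factors, filterByExpr, which removed 0 genes, robust quasi-likelihood fit, group only), with Benjamini-Hochberg adjustment over all genes and a threshold of 0.05. The SE is the size of the log2 fold change divided by the square root of F. DESeq2 1.42.0, which the study used in another version, and limma-voom (limma 3.58.1) were alternatives, as were other scalings, a minimum of 10 counts in every library, a fit that was not robust, mitochondrially encoded genes left out, the replicate number as a block, and libraries left out. Scores are means of log2 CPM (prior count 2) minus each gene's mean. The code was tested on simulated data. Lengths and overlaps came from GENCODE vM21 (GRCm38), whose coordinates are not printed, where 46 of 47 Nduf genes had a length, and promoters from RefSeq (GRCm38.p6). In 39 of the 43 Nduf promoters the last bases were found in a transcript of the same gene, a check of orientation.

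Values per mouse are given for the core subunits, Ndufb8, Ndufab1, Ndufa4, Ndufa4l2, Nduf genes with an unadjusted p under 0.05, and the 3 subunits and 2 Ndufaf genes at each end of the fold changes. Ndufa12 and Aifm1 were added after their values were seen. The values of 1 gene are not reported here, though it is counted in sums, counts and medians. Members and lists were chosen with earlier results of these data known. Scaling by nuclear totals alone was added after seeing the data.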

Additional observations from a re-analysis of the deposited data

Results flagged for a closer look

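For 19 of the genes with values per mouse, the sum of the family and the mitochondrial to nuclear ratio, each group of 4 mice was checked for a mouse far from the other 3 by Dixon's ratio at its 95% critical value. Of the 42 groups checked, 3 had such a mouse, and chance gives about 1 in 20. Ndufs1, which carries iron-sulfur clusters, had 561 CPM in D-gal + MSCs mouse 4, where the other 3 had 330 to 369. Ndufaf6, an assembly factor, had 32.5 CPM in the same mouse, where the other 3 had 22.3 to 23.6. Ndufa4l2, the paralogue of Ndufa4, had 25.7 CPM in D-gal + MSCs mouse 3, where the other 3 had 12.7 to 14.6. With library totals alone, the same mice had 426 counts per 1000000 of Ndufs1 (331 to 372 in the other 3), 24.7 of Ndufaf6 (22.3 to 23.6) and 26.0 of Ndufa4l2 (9.97 to 14.6), and Dixon's ratios of 0.568, 0.447 and 0.711 were below the critical value. The cause was not tested.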

How the results depend on the processing

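At an adjusted p under 0.05, 0 of 47 Nduf genes passed in edgeR and under each of the 19 alternatives, DESeq2 and limma-voom included, with lowest adjusted p-values from 0.152 to 0.819. The count at an unadjusted p under 0.05, given here with the share of all genes in parentheses, was 3 in edgeR (10.7%), 6 with DESeq2 (12.2%), 0 with library totals alone (15.0%), 10 with nuclear library totals alone (9.85%, added after seeing the data), and 0 with D-gal + MSCs replicate 4 and D-gal + PBS replicate 2 both left out (6.22%). Leaving out 1 library at a time, it ran from 0 (without D-gal + MSCs replicate 4, 8.06%) to 13 (without D-gal + MSCs replicate 1, 9.42%). It was 6 without D-gal + MSCs replicate 2 (11.7%). Of the D-gal + PBS libraries, leaving out replicate 2 gave 1 (7.86%) and leaving out replicate 4 gave 11 (10.7%). Nduf genes whose groups do not overlap, 0 in all mice (6.28%), numbered 1 with library totals (9.73%), 4 with nuclear totals (6.04%) and 0 to 8 with 1 library left out (8.33% to 11.9%). The median of the subunits, 0.25, ran from 0.05 to 0.39 with 1 library left out, and that of the Ndufaf genes, 0.15, from 0.12 to 0.23. With library totals these medians were 0.04 and -0.03, where the median of all genes was -0.19. By TMM-scaled CPM, D-gal + MSCs replicate 4 was highest in 38 of 47 genes, against 2258 of all 12171. D-gal + PBS replicate 2 was lowest in 33 of 47, against 1381 of all 12171. Leaving out both therefore had to lower most fold changes. With library totals D-gal + MSCs replicate 4 was highest in 6, where D-gal + MSCs replicate 3 was highest in 22. With nuclear totals D-gal + MSCs replicate 4 was highest in 31.

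Signs turned for these genes, none of them called under any setting. With D-gal + MSCs replicate 4 and D-gal + PBS replicate 2 left out, the log2 fold change was -0.26 for Ndufa2, -0.14 for Ndufa4, -0.069 for Ndufb8, -0.10 for Ndufs3, -0.019 for Ndufs7 and -0.016 for Ndufv2. With library totals it was -0.18 for Ndufa2, -0.10 for Ndufa4l2, -0.024 for Ndufs3 and -0.0069 for Ndufs7, with nuclear totals 0.012 for Ndufa7, 0.014 for Ndufaf6 and 0.021 for Ndufb4, and with limma-voom -0.0060 for Ndufa2. Leaving out 1 library at a time gave -0.16 to 0.16 for Ndufa2, -0.019 to 0.39 for Ndufa4, -0.24 to 0.16 for Ndufa4l2, -0.17 to 0.10 for Ndufa7, -0.19 to 0.042 for Ndufaf5, -0.16 to 0.079 for Ndufaf6, -0.18 to 0.16 for Ndufb4 and -0.0045 to 0.31 for Ndufs3. The cause was not tested. The filter on low counts removed 0 genes, so the alternative without it tests nothing.

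Replicate numbers are shared by the groups but are not known to pair the mice, and deviations of same-numbered mice correlated at -0.003, 0.156, 0.100 and 0.218 across genes. With the replicate block, 13 Nduf genes reached an unadjusted p under 0.05, where 14.1% of all genes did, and 0 an adjusted one, where 78 of all genes did, the median of the subunits was 0.21, and Ndufa2 had a log2 fold change of -0.010.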
